A study of Mus musculus with 9 samples.

Results

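The effect of ACHP in the presence of tumour necrosis factor (TNF) was measured by comparing 3 libraries of mouse kidney cultures given TNF and ACHP together with 3 libraries given TNF alone, 6 of the 9 libraries of the study. The members were the libraries whose titles name these treatments, and all genes that passed an expression filter were tested. The cells were primary cultures grown for several days from minced, enzyme-digested whole kidneys of wild-type mice, replated a day before treatment and lysed 6 h after it. TNF was given at 20 ng/mL and ACHP at 1 µM. The 3 libraries of cells given PBS were used as a reference level and to help estimate the spread between replicates. No group received ACHP alone, so an effect of ACHP on unstimulated cells cannot be told apart from an effect on the TNF response. Whether the replicates of a group were separate animals or cultures is not stated in the labels, and the p-values therefore speak of the variation among these 9 libraries, which may be technical. The purpose given for the study was to learn how the adhesion molecule VCAM-1 is switched on and what it does for the attachment of immune cells.

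TNF binds its receptor on the cell surface and recruits adaptor proteins and ubiquitin ligases, which switch on the IκB kinase complex. This complex phosphorylates the IκB proteins that hold Rel family transcription factors in the cytoplasm. Once IκB is degraded, the factors (NF-κB) enter the nucleus and switch on genes for chemokines, adhesion molecules and proteases, and also for IκB proteins and deubiquitinases that shut the pathway down again. ACHP is a small molecule that inhibits the catalytic subunits IKKβ and IKKα. In the kidney, tubular cells stimulated in this way are known to attract and hold leukocytes.

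Total counts of the 6 libraries ran from 15098278 to 20892176, and 14747 genes were tested. The cultures carried strong epithelial markers: the summed expression of 10 general epithelial genes was 6410 to 6482 CPM (counts scaled to a common library size) with TNF and 6801 to 7126 CPM with TNF and ACHP. Differentiated proximal tubule transcripts were nearly absent, with 6 of 19 markers passing the filter, 0 of them called, and sums of 35.03 to 39.3 CPM with TNF and 38.6 to 41.4 CPM with ACHP. Slc34a1, Slc5a2, Slc22a6 and Miox, transporters and an enzyme of mature proximal tubule cells, had 0 counts in all 6 libraries. Neutrophil and lymphocyte markers passed in no case and summed to at most 0.89 CPM in any library. CPM values are not corrected for gene length, so they are compared between libraries and not between genes.

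Transcripts of brain cells were present and differed between the libraries, so genes of this kind were set apart before anything else was read. The sum of 48 neuron markers was 242, 296 and 276 CPM in the TNF libraries and 185, 182 and 181 CPM in those with ACHP. It was 176 CPM in PBS replicate 1 but 389 and 341 CPM in the other PBS libraries, so the level also differed within an untreated group. Snap25, a protein of synaptic vesicle fusion, had 67, 120 and 79 counts with TNF, 2, 1 and 1 with ACHP, and 1, 217 and 149 with PBS. Slc1a2, the glutamate transporter of astrocytes, had 301, 501 and 419 counts with TNF against 37, 23 and 8 with ACHP. In CPM, PBS replicate 1 was within the range of the ACHP libraries for both genes. Brain genes were taken as those on neuron, astrocyte and oligodendrocyte lists, together with those at least 4-fold higher in both PBS replicates 2 and 3 than in PBS replicate 1. This gave 148 genes, of which 94 were called lower with ACHP (63.5%), 90 of them by at least 2-fold, and 1 was called higher (0.676%). Their median log2 fold change was -3.40, and the share that differing cell makeup, culture or sample handling has in it was not tested. In bulk RNA, fewer cells of a type and less RNA per cell cannot be told apart.

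Over all genes tested, brain genes included, 658 were lower (4.46%) and 400 higher (2.71%) in the ACHP libraries at an edgeR adjusted p under 0.05, 1058 in either direction (7.17%). A change of at least 2-fold was reached by 231 of the lower genes (1.57%) and by 3 of the higher genes (0.0203%). Without the brain genes, 564 of 14599 were lower (3.86%) and 399 were higher (2.73%), with 141 (0.966%) and 3 (0.0205%) at 2-fold or more. Falls were larger than rises: the median log2 fold change was -0.41 among the genes called lower outside the brain set and 0.23 among those called higher, while that of all genes tested was 0.00. At least 1.5-fold was reached by 212 lower and 13 higher genes, and 4-fold by 72 and 1. Of the 1058 called genes 1049 had no overlap between the TNF and ACHP libraries, as had 3796 of all 14747 tested. The largest changes named below were chosen to have none, so a lack of overlap adds no support to their calls. The brain rule is not complete, since some genes outside it also followed the neural transcripts: Rtn1, a neuronal reticulon, had 153, 180 and 143 counts with TNF, 32, 58 and 34 with ACHP and 42, 201 and 156 with PBS. Map1a, a microtubule-associated protein of neurons, had 110, 119 and 103 counts with TNF, 38, 53 and 33 with ACHP and 34, 200 and 169 with PBS. Its call (-1.54) was lost without TNF replicate 2 (-1.43). A wider rule at 2-fold, added after the data were seen, set 281 genes apart and left 556 lower and 383 higher genes, 107 and 3 of them by at least 2-fold.

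**Figure D1:**
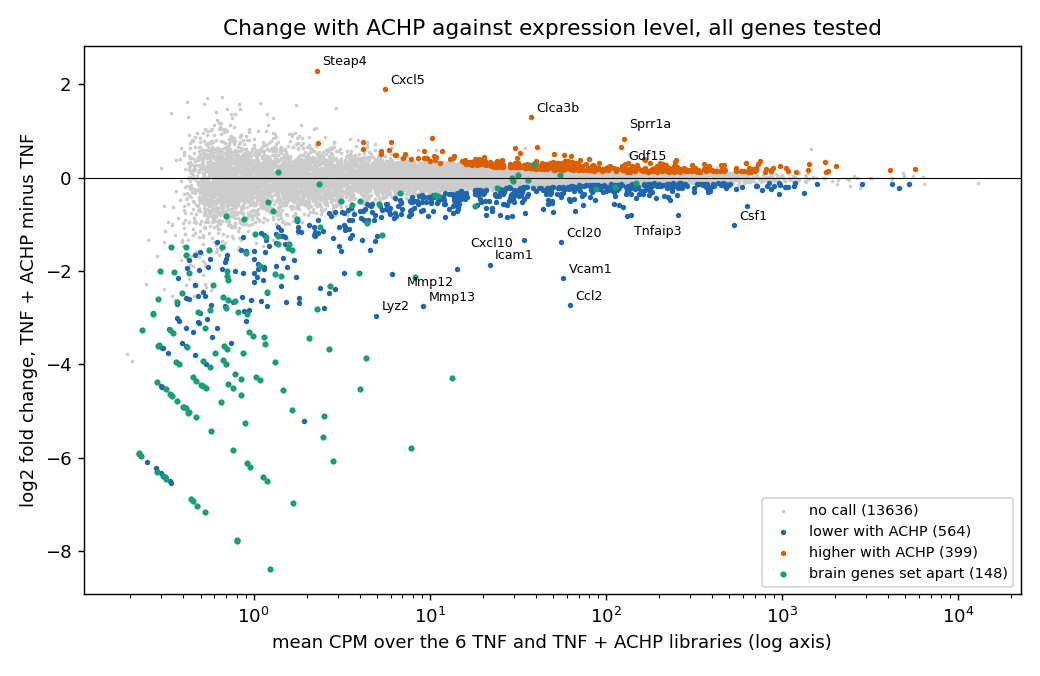
Each point is 1 of the 14747 genes tested, placed by its mean CPM over the 6 libraries (log axis) and its log2 fold change, TNF with ACHP minus TNF. The brain genes (green, 148) fill the lower left at low expression, the other called falls (blue, 564) reach further from 0 than the called rises (orange, 399), and Csf1 is a large fall at a high level.

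A second fit added a term for the 5 libraries with more neural transcripts (PBS replicates 2 and 3 and the 3 TNF libraries). The size of that term comes from PBS replicate 1 against the other PBS libraries, which widens every error, and 99 genes were then lower and 44 higher, 94 and 36 of them also called without the term. The counts also moved with single libraries. They were 422 lower and 181 higher without TNF replicate 1, 384 and 157 without TNF replicate 2, and 459 and 258 without TNF replicate 3. Among the libraries with ACHP, they were 402 and 188 without replicate 2 and 431 and 212 without replicate 3. The 231 falls of at least 2-fold numbered 123 without TNF replicate 2, 134 without ACHP replicate 2 and 138 without ACHP replicate 3, and the 3 such rises became 11 without ACHP replicate 1 and 6 without ACHP replicate 3. In what follows a gene is said to keep its call with the neural term where it passed in that second fit. Each count of called list members is to be read beside the shares over all genes tested, 4.46% lower and 2.71% higher. Lists with few calls can lie near these shares.

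The transcripts of the kinases that ACHP inhibits differed little. Ikbkb, which encodes IKKβ, was at 100, 103 and 102 CPM with TNF and 94.9, 97.7 and 98.9 CPM with ACHP, and Chuk, which encodes IKKα, at 109.2, 114 and 113 against 109.4, 115 and 107 CPM. The log2 fold changes were -0.06 (SE 0.04, edgeR adjusted p = 0.42) and -0.01 (SE 0.04, edgeR adjusted p = 0.90). Among 11 Rel subunits and IκB proteins, 5 fell and 0 rose, with a median log2 fold change of -0.28. Nfkbia, which encodes IκBα, was 79.8, 88.7 and 79.5 CPM with TNF and 47.9, 52.2 and 49.8 CPM with ACHP, still above the 36.0 to 39.8 CPM of the PBS libraries. Nfkbie, which encodes IκBε, was 38.0, 33.6 and 34.3 CPM against 20.8, 19.5 and 19.2 CPM, and here the ACHP libraries lay just above the PBS range of 17.9 to 18.6 CPM. The groups did not overlap for either gene, and the log2 fold changes were -0.72 (SE 0.06) and -0.83 (SE 0.07), with edgeR adjusted p = 5.0e-08 and 9.5e-08. Relb (-0.40) and Nfkb1 (-0.28), both Rel family subunits, fell less, and Rela, the main transactivating subunit, had no call (-0.06). Nfkbia, Nfkbie and Nfkb1 kept their calls with the neural term and Relb did not (-0.55, edgeR adjusted p = 0.064).

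A pair of genes that restrain NF-κB signalling fell. Tnfaip3, which encodes the ubiquitin-editing enzyme A20, was 166, 172 and 169 CPM with TNF and 94.7, 92.5 and 97.8 CPM with ACHP, beside 86.2 to 89.4 CPM with PBS (log2 fold change -0.83, SE 0.04, edgeR adjusted p = 1.8e-11). Its partner Tnip1 went from 62.1, 66.4 and 61.6 to 48.3, 45.1 and 48.5 CPM (-0.42, SE 0.05, edgeR adjusted p = 3.5e-05). These were the only 2 of 14 brakes that fell, the median of that list was -0.04, and 1 member rose, the deubiquitinase Otud7b (0.21), which lost its call without TNF replicate 2 (0.16). Of 23 adaptors and kinases upstream of NF-κB 4 fell and 1 rose (median -0.03), or 2 rose without ACHP replicate 1. Traf1, a TNF receptor adaptor, was 16.3, 15.8 and 15.6 CPM with TNF and 9.93, 10.2 and 9.498 CPM with ACHP (log2 fold change -0.68). Birc3, a ubiquitin ligase of the receptor complex, fell by 0.55 and Ikbke, an IκB kinase relative, by 0.52. The riser was Map3k14, which encodes the kinase NIK of the non-canonical pathway: 33.9, 29.6 and 30.6 CPM with TNF, 50.9, 50.5 and 46.7 CPM with ACHP, and 33.4 to 35.8 CPM with PBS (0.65, SE 0.06, edgeR adjusted p = 8.5e-07). With the neural term Tnfaip3, Tnip1, Birc3, Ikbke and Map3k14 kept their calls and Traf1 did not (-0.55, edgeR adjusted p = 0.24).

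Promoter sequences, shown because the Rel factors bind a short kappa-B motif, were taken from RefSeq for GRCm38.p6 (250 bases before to 50 after each start). The search looked on both strands for GGG, any 2 bases and then TTTCC, or GGG, any 2 bases and then TTCCC, and capitals mark the matches. The 3 genes below fell with ACHP and hold a match close to the start.
Ccl20, chr1:83116516-83116815, plus strand: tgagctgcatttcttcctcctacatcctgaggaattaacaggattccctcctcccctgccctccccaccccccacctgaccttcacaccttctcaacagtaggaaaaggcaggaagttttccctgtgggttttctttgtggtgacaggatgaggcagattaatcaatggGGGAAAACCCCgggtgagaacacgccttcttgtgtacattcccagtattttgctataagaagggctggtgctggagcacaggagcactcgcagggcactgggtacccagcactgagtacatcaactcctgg
Cxcl10, chr5:92348840-92349139, minus strand: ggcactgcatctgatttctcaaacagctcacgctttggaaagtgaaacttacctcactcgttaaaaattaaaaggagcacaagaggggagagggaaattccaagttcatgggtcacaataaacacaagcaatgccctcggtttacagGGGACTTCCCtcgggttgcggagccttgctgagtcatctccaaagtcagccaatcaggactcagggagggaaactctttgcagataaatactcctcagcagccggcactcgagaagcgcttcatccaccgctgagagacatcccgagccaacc
Nfkbia, chr12:55492598-55492897, minus strand: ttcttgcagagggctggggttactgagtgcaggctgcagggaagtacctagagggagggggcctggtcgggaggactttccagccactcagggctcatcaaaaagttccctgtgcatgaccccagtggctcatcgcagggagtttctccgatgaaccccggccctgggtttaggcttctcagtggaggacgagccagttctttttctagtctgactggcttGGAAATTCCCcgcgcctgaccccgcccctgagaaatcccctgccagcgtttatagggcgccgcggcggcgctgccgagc
Counted from the start, the matches begin at -81 and, overlapping it, -80 in Ccl20, at -103 in Cxcl10 and at -29 in Nfkbia. Other genes lower with ACHP hold the bases GGAAATCCCC at -12 (Tnfaip3), GGGAATTCCC at -57 (Tnip1, the same on both strands), GGGGATTTCC at -43 (Tnfrsf9) and GGAAAGTCCC at -154 (Csf1). Tnfaip3 and Tnfrsf9 each have a further promoter without a match. Further lower genes with a match include H2-Q4, with GGGGATTTCC at -174, and Map1a, which followed the neural transcripts, with GGGAGTTTCC at 24. RefSeq gave no promoter for Vcam1 or Ccl2, so neither was searched. Icam1, Nfkbie, Mmp13, Mmp12, Birc3, Traf1 and Irf1 also fell and had 0 matches. Of the genes that rose, Mvd holds GGAAAAGCCC at -47, and Bcl2l1 holds GGAAAAACCC at -218 in 1 of its promoters. The motif also stood before genes with no call: Cxcl2 holds GGGAATTTCC at -97 and GGGCTTTTCC at -78, and H2-D1 holds GGGGATTCCC at -171. A promoter was found for 10696 of the genes tested and for 184 of the 246 genes that the naming rule gave. A match was held by 34 of 418 genes called lower outside the brain set (8.13%), 15 of 308 called higher (4.87%), 425 of 9902 without a call (4.29%) and 476 of all 10696 (4.45%), against 1007 of the 27025 genes in the promoter table (3.73%). A gene can have several promoters, and counted by promoter the shares were 6.66% of 586 for the lower genes, 3.74% of 13761 for all genes tested and 3.24% of all 32851. With the TTTCC form alone it was 22 of the 418 (5.26%) and 222 of all 10696 (2.08%). A match in this window is a description of the letters and does not show binding.

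Chemokines were among the groups with most calls: of 19 tested 10 fell and 1 rose, with a median log2 fold change of -0.64. Ccl2, a monocyte attractant (ENSMUSG00000035385, chromosome 11, 81926397 to 81928279, GRCm39), had 111, 112 and 102 CPM with TNF and 15.6, 15.8 and 17.8 CPM with ACHP, beside 16.7 to 18.2 CPM with PBS. Ccl7, its neighbour with a similar function, had 96, 67 and 62 counts against 12, 21 and 11 counts. Ccl20, a ligand for CCR6 on T cells and dendritic cells, had 77.4, 87.9 and 76.4 CPM against 31.7, 28.8 and 32.1 CPM, and PBS 24.1 to 25.5 CPM. Every ACHP library was below every TNF library for these genes, and for Ccl20 each was also above each PBS library. Cxcl10, an attractant of T cells, was 49.0, 50.2 and 47.8 CPM with TNF and 18.0, 19.0 and 21.6 CPM with ACHP, overlapping the PBS libraries at 19.1 to 22.6 CPM. The log2 fold changes were -2.73 (SE 0.06) for Ccl2, -2.46 (SE 0.29) for Ccl7, -1.39 (SE 0.06) for Ccl20 and -1.33 (SE 0.07) for Cxcl10, with edgeR adjusted p of 1.4e-16, 1.3e-05, 8.8e-12 and 1.7e-10. Membrane-bound chemokines fell as well: Cx3cl1 by 0.79 and Cxcl16, 18.3% of whose exons overlap other genes, by 0.43, both picked after their values were seen. The neutrophil attractant Cxcl2 had 13.1, 14.4 and 15.6 CPM with TNF, 12.3, 12.4 and 12.9 CPM with ACHP and 4.29 to 5.47 CPM with PBS, and its difference from TNF had no call (-0.19, SE 0.10, edgeR adjusted p = 0.28). Cxcl5, another neutrophil attractant, was the 1 that rose, from 41, 34 and 40 counts to 67, 236 and 170, so that ACHP replicate 1 had the smallest rise (log2 fold change 1.90, SE 0.29, edgeR adjusted p = 0.00024). With the neural term 4 chemokines were lower and 0 higher, Ccl2, Ccl20 and Cxcl10 among them, whereas Ccl7 (-1.45, edgeR adjusted p = 0.56) and Cxcl5 (1.43, edgeR adjusted p = 0.31) had no call.

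Of 14 leukocyte adhesion molecules and ligands 4 fell and 2 rose, and the median was 0.02. The rises were 1 when any library but ACHP replicate 1 was left out. Vcam1, the integrin ligand the study set out from (ENSMUSG00000027962, chromosome 3, 115903598 to 115923337, GRCm39), had 99.9, 93.0 and 86.0 CPM with TNF, 24.3, 19.1 and 20.0 CPM with ACHP and 18.2 to 20.7 CPM with PBS. ACHP replicate 1 was above the PBS libraries and the others within their range. Icam1, a second integrin ligand, had 36.3, 33.6 and 33.4 CPM against 9.07, 10.2 and 8.92 CPM, and 11.7% of its exons overlap other genes, which is called shared below. The log2 fold changes were -2.15 (SE 0.08) and -1.87 (SE 0.08), with edgeR adjusted p = 2.0e-13 and 4.9e-12. Cd44, a hyaluronan receptor, fell from 1482, 1506 and 1461 to 1192, 1183 and 1183 CPM (-0.32, SE 0.03, edgeR adjusted p = 4.3e-07), and the PBS libraries were lower still at 1054 to 1068 CPM. Cd47, which binds SIRPα on phagocytes, fell by 0.36. Spp1, which encodes osteopontin, rose by 0.16, with 18.8% of its exon length shared. Vcam1, Icam1 and Cd44 kept their calls with the neural term, while Cd47 (-0.18, edgeR adjusted p = 0.34) and Spp1 (0.16, edgeR adjusted p = 0.25) did not.

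**Figure D2:**
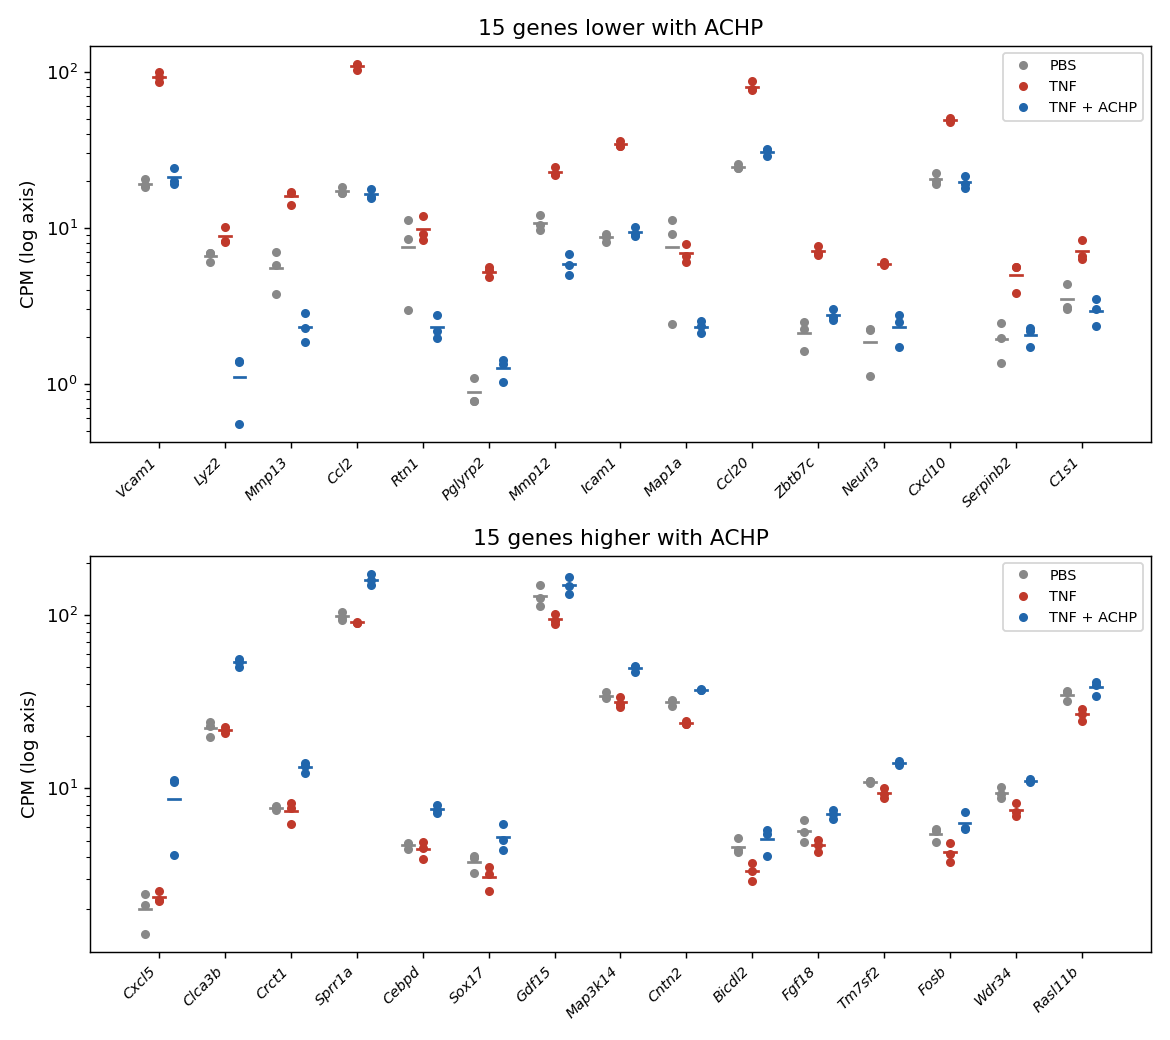
CPM (log axis) of the 15 genes with the largest called fall and the 15 with the largest called rise outside the brain set, at 5 CPM or more in the higher group and chosen to have no overlap between the TNF and ACHP libraries. Points are the 3 libraries of each group (grey PBS, red TNF, blue TNF with ACHP) and short lines their means. Vcam1, Ccl2, Icam1 and Cxcl10 have blue points near the grey ones, and Clca3b and Sprr1a have blue points above both other groups. Rtn1 and Map1a show 1 PBS library far below the other PBS libraries and the TNF libraries.

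Among 27 interleukins, colony-stimulating factors and TNF ligands 7 fell and 2 rose (median -0.18), or 1 rose without TNF replicate 1 or 3 or ACHP replicate 1 or 2. Csf1, the growth factor of macrophages, changed at a high level (ENSMUSG00000014599, chromosome 3, 107648364 to 107667785, GRCm39): 703, 734 and 695 CPM with TNF fell to 352, 344 and 360 CPM with ACHP. These values lie below the PBS libraries, which had 422, 426 and 403 CPM. Its log2 fold change against TNF was -1.01 (SE 0.04, edgeR adjusted p = 2.0e-13) and it kept its call with the neural term (-1.04). Il1b, an inflammasome-processed cytokine, had 57, 41 and 32 counts with TNF but 3, 12 and 7 with ACHP, and the endogenous Tnf transcript 79, 68 and 50 against 29, 34 and 24. At these depths the log2 fold changes were -2.66 (SE 0.37) and -1.29 (SE 0.23), with edgeR adjusted p = 9.6e-05 and 0.0012, and neither kept its call with the neural term. Il11, a cytokine of the IL-6 family, rose from 41.6, 42.6 and 41.4 to 60.2, 59.5 and 57.5 CPM, against 33.9 to 37.1 CPM with PBS (0.50, SE 0.05, edgeR adjusted p = 2.7e-06). It was still called with the neural term (0.43, edgeR adjusted p = 0.043).

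Of 19 TNF receptor family and death signalling genes 4 fell and 1 rose, with a median of -0.06, and 0 rose without TNF replicate 2 or 3 or ACHP replicate 3. Cd40, a co-stimulatory receptor, went from 30.5, 34.5 and 28.8 to 23.4, 19.2 and 20.9 CPM (log2 fold change -0.57, SE 0.08, edgeR adjusted p = 0.00019) and kept its call with the neural term. Tnfrsf9, another co-stimulatory receptor, fell by 0.77 and Tnfrsf1b, the second receptor for TNF, by 0.40, and both lost the call with that term. Casp8, the initiator caspase of the death receptors (-0.07), and Cflar, its inhibitor (0.03), had no call. In the BCL2 family of 18 tested genes 2 fell and 3 rose (median 0.05), the rises being at most 0.21, and 0 rose without TNF replicate 2.

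Secreted proteases were among the steepest falls. Of 17 metalloproteinases and their inhibitors 5 fell and 1 rose (median -0.17), the rise being lost when any library but ACHP replicate 1 was left out. Mmp13, a collagenase, had 306, 256 and 218 counts with TNF, 37, 60 and 29 with ACHP, and 53, 126 and 106 with PBS. Mmp12, the macrophage elastase, had 445, 330 and 338 counts with TNF, 111, 105 and 91 with ACHP, and 147, 217 and 178 with PBS. Mmp3, a stromelysin, had 58, 67 and 57 counts with TNF but 3, 1 and 1 with ACHP, with 0, 8 and 3 in the PBS libraries. In CPM, all ACHP libraries were below all PBS libraries for Mmp13 and Mmp12. The log2 fold changes against TNF were -2.75 (SE 0.18, edgeR adjusted p = 3.7e-09) for Mmp13 and -1.96 (SE 0.11, edgeR adjusted p = 4.5e-10) for Mmp12, and both kept their calls with the neural term. For Mmp3 (edgeR adjusted p = 2.5e-06) that term gave 0.19 (edgeR adjusted p = 0.91), a value that rests on the library with 0 counts. Mmp9, a gelatinase picked after its values were seen, fell from 172, 182 and 177 to 101, 96.9 and 106 CPM, still above the PBS libraries at 51.9 to 61.6 CPM. Mmp14, the membrane-bound activator of other proteases, had no call (0.01), nor did the inhibitor Timp3 (0.11, 21.3% of its exon length shared).

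Plasminogen activation and prostaglandin synthesis had 5 falls and 0 rises among 12 genes (median -0.09), or 3 falls without TNF replicate 1. Serpinb2, an inhibitor of plasminogen activators with 11.7% of its exon length shared, had 102, 84 and 60 counts with TNF but 37, 36 and 34 with ACHP (log2 fold change -1.30, SE 0.23, edgeR adjusted p = 0.0014). Plau, the urokinase gene, had no call (-0.01). Serpinb2 lost its call with the neural term (-1.36, edgeR adjusted p = 0.22) at nearly the same fold change. Of 24 collagens and matrix genes 7 fell and 3 rose (median -0.06). Col5a3, a minor fibrillar collagen, fell from 90.7, 91.6 and 97.2 to 72.4, 70.1 and 67.6 CPM (-0.41, SE 0.05, edgeR adjusted p = 2.2e-05), and Fn1, which encodes fibronectin, rose by 0.19 but not without TNF replicate 2 (0.16). The falls in this list numbered 3 without TNF replicate 1, 4 without TNF replicate 3 and 3 without ACHP replicate 3, and 1 with the neural term, and the rises numbered 1 without TNF replicate 2. Summed fibroblast and pericyte markers were 738 to 761 CPM with TNF and 635 to 702 CPM with ACHP. Acta2 alone gave 9406 of the 13510 counts of this list in TNF replicate 1. Of 12 markers tested 4 fell. Only 1 fell without TNF replicate 1 or 3, and 2 without TNF replicate 2 or ACHP replicate 3. The 4 were Rgs5, Acta2, Col3a1 and Col1a2, the last 2 being also among the falls of the matrix list. Pdgfra, Pdgfrb, Dcn and Col1a1 were among the 8 with no call. The part of fibroblast content in the matrix genes was not tested.

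Genes of antigen presentation fell by small amounts. Of 17 genes of MHC class I and the immunoproteasome 7 fell and 0 rose (median -0.19), or 3 without ACHP replicate 2. Erap1, which trims peptides for MHC class I and shares 11.5% of its exon length, went from 83.8, 81.6 and 83.5 to 67.1, 62.4 and 61.4 CPM, below the 69.6 to 74.0 CPM of PBS (-0.38, SE 0.05, edgeR adjusted p = 2.2e-05). Psmb10, an immunoproteasome subunit, fell by 0.57, but by 0.51 with no call without ACHP replicate 2. The class I heavy chain gene H2-K1 was 158, 158 and 170 CPM with TNF and 156, 163 and 165 CPM with ACHP, with no call (edgeR adjusted p = 0.97). B2m, the light chain of class I molecules, picked after its values were seen, went from 341, 347 and 334 to 289, 293 and 293 CPM (-0.22). H2-Q4, a further class I gene, also fell (-0.40, 19.1% shared, no call without TNF replicate 2 at -0.33 or without ACHP replicate 2 at -0.36), and H2-D1 had no call (-0.03). Of 30 interferon-stimulated genes 7 fell and 0 rose (median -0.25), while 4 fell without TNF replicate 2 or ACHP replicate 2 and 1 rose without ACHP replicate 1. Irf1, a transcription factor with 20.0% of its exon length shared, had 31.2, 33.6 and 28.7 CPM with TNF and 24.1, 19.0 and 20.3 CPM with ACHP (-0.57, SE 0.09, edgeR adjusted p = 0.00034). Erap1 kept its call with the neural term. Irf1 did not (-0.42, edgeR adjusted p = 0.29), and 1 member of each of these lists was then lower.

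Macrophage transcripts fell with ACHP to below their level in untreated cultures. Of 28 markers of macrophages and dendritic cells 22 were tested, 16 fell and 0 rose, with a median log2 fold change of -2.04. Their summed expression was 70.5, 73.0 and 69.8 CPM with TNF, 31.7, 32.1 and 35.7 CPM with ACHP, and 63.1, 68.1 and 68.7 CPM with PBS. PBS replicate 1, which had few neuron transcripts, held 63.1 CPM. Of 8 microglia markers 4 were tested, 0 fell and 1 rose, Sall1 (median -0.28). Among those with no call, P2ry12 had 23, 43 and 31 counts with TNF against 11, 28 and 15 with ACHP. Whether the macrophage and neural falls share a source was not tested. Lyz2, which encodes lysozyme, had 147, 153 and 128 counts with TNF but 9, 29 and 22 with ACHP (log2 fold change -2.95, SE 0.21, edgeR adjusted p = 1.7e-08). For Mpeg1, a pore-forming protein of phagocytes, the counts were 84, 74 and 80 against 16, 17 and 16. Ctss, a lysosomal protease of antigen-presenting cells, had 80, 74 and 61 counts against 10, 10 and 13. Cybb, the catalytic subunit of the phagocyte oxidase, had 31, 32 and 30 counts against 3, 9 and 4. No ACHP library reached a TNF library for these genes, and all 4 kept their calls with the neural term, in which 7 of the 22 markers were lower. Not all markers moved alike. Csf1r, the receptor for the Csf1 product (15.1% of its exon length shared, no call with the neural term), fell by 0.55, from 11.7, 11.99 and 12.7 to 8.83, 8.25 and 7.71 CPM. Of the markers with no call, here picked after their values were seen, Cd68, a lysosomal protein, had 81, 73 and 84 counts against 81, 76 and 71, and Cd14, a co-receptor for lipopolysaccharide, had 169, 149 and 154 against 146, 188 and 162. Ccr2, a receptor of blood monocytes, had 1 count over the 6 libraries. Of 14 complement genes tested 6 fell and 0 rose (median -0.89), and 3 of the 6 were the C1q subunits, which are also on the macrophage list. C1s1, a C1 protease gene with 18.4% of its exon length shared, had 120, 125 and 98 counts against 38, 63 and 55 (-1.26, SE 0.19, edgeR adjusted p = 0.00021), with no call under the neural term (-0.97). The share of macrophage content in the falls of Il1b, Tnf and Mmp12 was not tested.

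**Figure D3:**
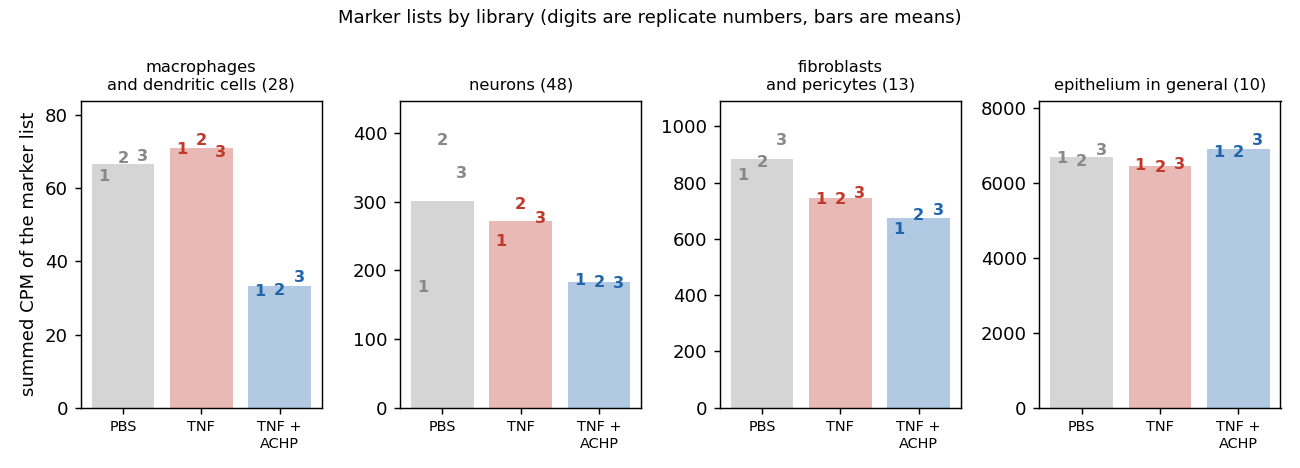
Summed CPM of 4 marker lists in each library, with bars for the group means and each replicate's number set at its value. The macrophage list is lower in all 3 ACHP libraries than in the other 6, the neuron list is low in these and in PBS replicate 1, and the epithelial list differs by little.

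The genes higher with ACHP were fewer and changed less. Several are on a list for cornified and keratinising epithelium, which was drawn up with earlier results of these data known. Of its 30 genes 12 were tested, 5 rose and 0 fell (median 0.31). Among those not tested 5 had 0 counts in all 6 libraries, and Tgm1, a tested member, had no call (-0.02). Clca3b, of a family of secreted metalloproteases that act on chloride channels (ENSMUSG00000037033, chromosome 3, 144528384 to 144555118, GRCm39), had 21.0, 21.7 and 22.6 CPM with TNF and 56.1, 50.3 and 54.0 CPM with ACHP, with PBS at 19.9 to 24.2 CPM. Sprr1a, a cornified envelope precursor, had 89.9, 90.7 and 92.0 CPM against 149, 159 and 174 CPM, with PBS at 93.5 to 104 CPM. Crct1, a gene of the same epidermal cluster, had 7.74, 6.20 and 8.20 CPM against 12.3, 13.5 and 13.96 CPM. For these 3 genes the TNF and PBS libraries lay close together and the ACHP libraries stood above both, with log2 fold changes against TNF of 1.30 (SE 0.07), 0.82 (SE 0.05) and 0.84 (SE 0.11) and edgeR adjusted p of 1.7e-10, 2.1e-09 and 4.6e-05. All 3 kept their calls with the neural term. Ivl, which encodes involucrin, differed in pattern: 17.4, 16.1 and 18.0 CPM with TNF and 23.5, 21.5 and 25.2 CPM with ACHP, but 26.2 to 29.6 CPM with PBS (0.44, SE 0.08, edgeR adjusted p = 0.0014, no call with the neural term). Among 10 general epithelial markers 5 rose and 0 fell (median 0.16): Krt19 by 0.27, Cdh16, a kidney cadherin, by 0.22, Krt18 by 0.20, Pax8, a kidney transcription factor, by 0.18 and Krt8 by 0.17. Pax8 lost its call without TNF replicate 1 (0.17) or 2 (0.15) and without ACHP replicate 1 (0.17) or 3 (0.14), and Cdh16 alone was called with the neural term (0.28).

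Outside these lists, the largest rises included a secreted cytokine, signalling proteins and a metal reductase. Gdf15, a stress-induced cytokine, had 92.8, 89.5 and 102 CPM with TNF, 132, 167 and 147 CPM with ACHP and 113 to 150 CPM with PBS (log2 fold change 0.65, SE 0.09, edgeR adjusted p = 5.6e-05). Cntn2, a cell adhesion molecule of the immunoglobulin family, had 23.4, 23.5 and 24.5 CPM against 37.5, 36.9 and 36.8 CPM, with PBS at 30.0 to 32.4 CPM (0.64, SE 0.06, edgeR adjusted p = 6.1e-07). Rasl11b, a small GTPase, had 24.5, 26.8 and 28.9 CPM against 34.3, 39.6 and 41.4 CPM (0.53). These 3 were lower with TNF than with PBS in every library, and they kept their calls with the neural term. Steap4, a metal reductase picked after its values were seen because it was the largest rise, had 15, 10 and 13 counts with TNF, 42, 99 and 64 with ACHP and 8, 4 and 8 with PBS (2.28, SE 0.31, edgeR adjusted p = 8.5e-05). Cebpd, a transcription factor of the acute phase, rose by 0.77 (15% of its exon length shared, no call with the neural term). Less certain were Sox17 (0.77, 16.8% shared), which had no call without TNF replicate 3 (0.65) or ACHP replicate 2 (0.61), and Fosb (0.57), which had none without TNF replicate 1 (0.48), TNF replicate 2 (0.56) or ACHP replicate 3 (0.47).

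Cholesterol synthesis and uptake had the highest share of rises among the 28 pathway lists: 11 of 22 genes rose and 0 fell, with a median log2 fold change of 0.16. Fdps, which makes farnesyl pyrophosphate, was 155, 160 and 160 CPM with TNF and 191, 200 and 200 CPM with ACHP, beside 157 to 172 CPM with PBS (0.32, SE 0.04, edgeR adjusted p = 4.0e-05). The ACHP libraries were above all TNF and PBS libraries for this gene. Srebf2, the transcription factor that drives these genes, had no call (0.12), nor did Cyp51 (0.12). Without TNF replicate 2 there were 7 rises. With the neural term 1 remained, Fdps (0.35), and the median was 0.12.

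Feedback inhibitors of the MAP kinases rose as well, 5 of 18 with 0 falls (median 0.15). Dusp1, a phosphatase of the stress-activated MAP kinases, had 51.9, 52.9 and 55.1 CPM with TNF, 68.7, 73.5 and 77.1 CPM with ACHP and 54.9 to 58.6 CPM with PBS (log2 fold change 0.46, SE 0.05, edgeR adjusted p = 9.1e-06). Spry1 (0.31, 24.4% of its exon length shared), an inhibitor of receptor tyrosine kinase signalling, Dusp6 (0.30), a phosphatase of ERK, and Errfi1 (0.23), an inhibitor of the EGF receptor, rose less. Dusp1 and Spry1 were called with the neural term. The EGF receptor, its relatives and their ligands had 0 calls among 14 genes in edgeR (median -0.01), Egfr itself being at -0.03 (SE 0.03). Of 23 AP-1 and other immediate early genes 4 rose and 0 fell (median 0.09), or 2 without TNF replicate 1, 1 without TNF replicate 2 and 2 without ACHP replicate 3. Jund rose by 0.35, although 52.6% of its exon length is shared.

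Chaperones of the endoplasmic reticulum fell slightly and a pair of cytosolic small heat shock proteins rose. In the list of the unfolded protein and integrated stress responses 6 of 24 genes fell and 1 rose (median -0.04). The number of rises was 0 without any of the TNF replicates or ACHP replicate 3, and 3 without ACHP replicate 1. The falls were Hsp90b1 (15.7% shared), which folds proteins in the endoplasmic reticulum, the chaperones and isomerases Hspa5, Calr, Pdia3 and Pdia6, and the transcription factor Xbp1, all 6 being named to show the whole set. Xbp1 (-0.22) lost its call without TNF replicate 2 (-0.21), TNF replicate 3 (-0.21) or ACHP replicate 2 (-0.16), and Pdia3 (-0.18) without TNF replicate 1 (-0.16). Calr, which encodes calreticulin, had 1123, 1128 and 1107 CPM with TNF, 987, 929 and 1008 CPM with ACHP and 1075 to 1161 CPM with PBS (log2 fold change -0.20, SE 0.04, edgeR adjusted p = 0.0015). Hsp90b1 had 979, 938 and 914 CPM against 834, 738 and 804 CPM (-0.25, SE 0.05, edgeR adjusted p = 0.0026). The integrated stress response factor Atf4 had no call (0.06). Of 21 cytosolic heat shock genes 2 rose and 0 fell (median -0.03), both of them small heat shock proteins: Hspb1 went from 61.7, 60.6 and 64.0 to 75.9, 82.1 and 85.1 CPM (0.38, SE 0.06, edgeR adjusted p = 0.00022) and Cryab, with 17.0% shared, rose by 0.24. Both kept their calls with the neural term, but 0 members of the endoplasmic reticulum list did, Hsp90b1 being at -0.31 (edgeR adjusted p = 0.087).

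**Figure D4:**
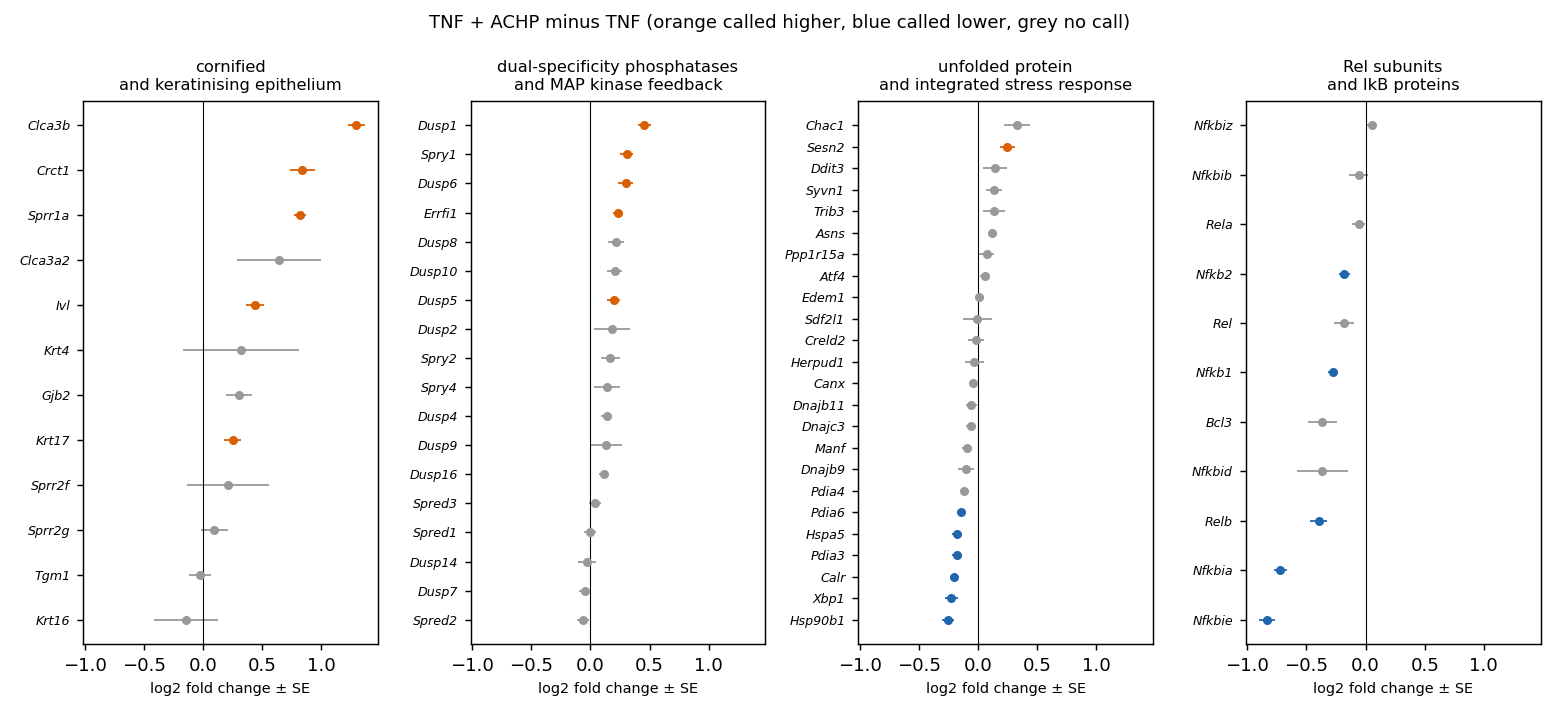
Log2 fold change (TNF with ACHP minus TNF) and its standard error for each tested gene of 4 lists, orange where called higher, blue where called lower and grey where not called. Clca3b, Crct1 and Sprr1a are the largest rises of the keratinising list, the MAP kinase inhibitors lie mostly above 0, 6 genes of the stress response list are called below 0, and Nfkbia and Nfkbie are the largest falls among the Rel and IκB genes.

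Glucose metabolism changed by little. Of 21 glycolysis genes 6 rose and 0 fell (median 0.10), but 1 rose when any of TNF replicate 1, TNF replicate 2, ACHP replicate 2 or ACHP replicate 3 was left out. The gene called throughout was Slc2a1, the glucose transporter GLUT1: 207, 218 and 223 CPM with TNF, 267, 281 and 293 CPM with ACHP and 232 to 246 CPM with PBS (log2 fold change 0.38, SE 0.04, edgeR adjusted p = 5.2e-06), and 0.45 with the neural term. Of 24 antioxidant genes and NRF2 targets 2 fell and 0 rose, or 1 when any single library was left out, with 1 rise without ACHP replicate 1. Txnrd1, a thioredoxin reductase, fell by 0.17.

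Proliferation, p53 and tubular injury genes showed few or mixed calls. Of 35 cell cycle genes 3 fell and 1 rose (median -0.09). The falls were 0 without TNF replicate 1 or 2 or ACHP replicate 2, and 1 without TNF replicate 3 or ACHP replicate 3. Mki67, a proliferation marker, had 349, 362 and 346 CPM with TNF and 326, 261 and 263 CPM with ACHP (log2 fold change -0.32, SE 0.08, edgeR adjusted p = 0.017), with ACHP replicate 1 nearest to TNF. It lost its call when any library but that one was left out (-0.33 to -0.26) and was called with the neural term (-0.56). Ccnd2, a D-type cyclin, rose by 0.31, and Ccnd1 had no call (-0.09, 23.4% of its exon length shared). Of 24 p53 targets 4 rose, Gdf15 among them, and 1 fell, the p53 inhibitor Mdm2 (-0.18), with a median of 0.03. In this list 2 fell without ACHP replicate 1, and 1 rose without TNF replicate 1, 1 without TNF replicate 2 and 2 without ACHP replicate 3. Of 22 tubular injury and repair genes 6 rose and 5 fell (median 0.04). The rises included the keratins Krt8, Krt18 and Krt19. The falls included Clu, which encodes clusterin (-0.14, and -0.13 with no call without TNF replicate 1), and Havcr1, which encodes the injury marker KIM-1 (-0.15). Havcr1 lost its call without TNF replicate 2 (-0.12) or 3 (-0.15) and without ACHP replicate 1 (-0.14), 2 (-0.13) or 3 (-0.17). The falls in this list numbered 3 without ACHP replicate 1 and 2 without any of the TNF replicates or ACHP replicate 2, and the list had 0 calls with the neural term.

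**Figure D5:**
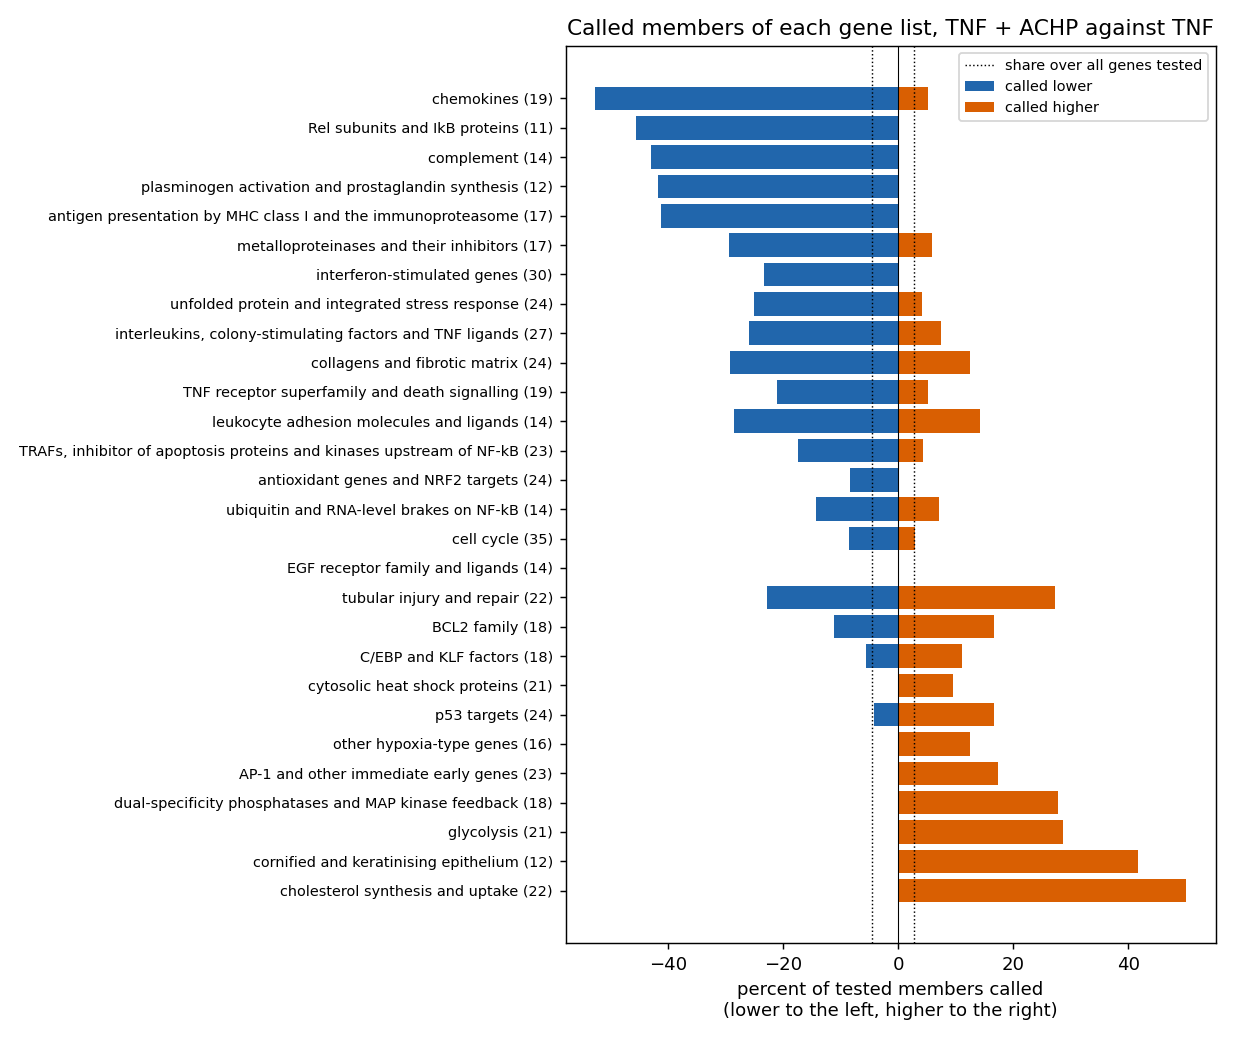
Percent of the tested members of each of 28 gene lists that were called lower (blue, to the left) or higher (orange, to the right) with ACHP, with the number tested in brackets. Dotted lines mark the shares over all genes tested, 4.46% lower and 2.71% higher: chemokines and the Rel and IκB genes reach furthest to the left, and cholesterol synthesis and cornified epithelium furthest to the right.

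Across the 28 lists, 93 of 544 tested genes were lower and 60 higher. These counts stand beside the 4.46% and 2.71% of all genes tested, and since the lists were drawn up with earlier results of these data known, they describe the lists and do not test them.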

How the data were processed

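RNA was sequenced from 9 libraries of primary cultured mouse renal cells, 3 per group. The authors deposited 1 table of raw counts per gene, made with featureCounts 2.0.1 at default settings on Ensembl 109 gene models of GRCm39, per the file headers; STAR, mm10 and DESeq2 are named in the submitters' processing notes. Default counting does not use strand. The table also holds exon length, which was used for no test.

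Groups followed the sample titles. Genes passing edgeR's filterByExpr over all 9 libraries were fitted with TMM scaling and the quasi-likelihood test (edgeR 4.0.16, R 4.3.3), and p-values were adjusted by Benjamini-Hochberg over all 14747 genes; called means under 0.05. Total counts ran from 14194295 to 20892176, and replicates varied by 4.01% beyond counting error. The fit was also run on counts simulated from its own estimates of spread, with set changes and no neural difference between libraries. That run cannot show how the neural transcripts affect the calls. The members and lists were chosen with earlier results of these data known.

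Brain genes were those on the neural lists or, with 0.25 CPM added, exceeding PBS replicate 1 by 4-fold or more in both other PBS libraries. Named genes were Vcam1, Ikbkb, Chuk, the 15 largest called changes per direction at 5 CPM or more without overlap, up to 4 called members per list and direction, up to 2 uncalled members per list, and called markers. Exon overlap with other genes is given above 10%. Alternatives were DESeq2 1.42.0, other scalings and filters, a replicate block, thinned counts, a stricter threshold, a term for neural transcripts and leaving out each library. Promoters came from RefSeq (GRCm38.p6), and no coordinates were converted between builds. Some genes that the rule names are not reported here; without these and the brain genes other than Snap25 and Slc1a2, 209 of its 246 genes were followed under the alternatives.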

Additional observations from a re-analysis of the deposited data

How the results depend on the processing

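Of the 246 genes of the naming rule 209 were followed, as set out in the processing. Of these, 194 kept direction and call with DESeq2 and 15 lost the call, and 209 kept both with RLE scaling. DESeq2 called 516 genes lower and 271 higher. Without a filter on low counts 399 genes were lower and 29 higher by at least 2-fold, with only the 6 libraries fitted 10 were higher by that much, and an adjusted p under 0.01 left 321 lower, 147 higher and 108 lower by at least 2-fold. The term for neural transcripts left 99 lower, 44 higher and 21 lower by at least 2-fold; under it 101 of the 209 kept direction and call, 104 lost the call and 4 changed sign: Map1a (0.53), Mmp3 (0.19), Snap25 (0.96) and Slc1a2 (1.43). The cause was not tested. The 2-fold brain rule, chosen after seeing the data, left 107 falls of at least 2-fold. The TTTCC form of the motif alone was held by 5.26% of genes called lower. Leaving out 1 library gave 384 to 617 genes lower and 157 to 478 higher, with 123 to 199 and 3 to 11 by at least 2-fold. Replicates with the same number had correlations of 0.09, -0.007 and 0 between TNF and ACHP libraries over 10537 genes, so the numbers were not taken to pair samples; a fit with the replicate block called 732 lower and 443 higher. Genes under about 5 CPM rest on few counts, which limits the precision of their fold changes.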
